A study of Mus musculus with 20 samples.

Results

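Genes for the uptake, binding, re-esterification, and lipoprotein export of fat were described in the proximal colon (PC) of mice given resistant potato starch (RPS). The set was taken from a list of 7 symbols: Cd36, Fabp1, Fabp2, Dgat1, Apob, Apoa1, and Mttp. Of these, 6 were matched by Ensembl identifier among the 12701 genes of the count table, and Mttp was not analysed here. C57BL/6 mice entered the study at 3 weeks of age and ate the Total Western Diet (TWD), a feed that mimics what Americans typically eat, for 6 weeks. They then ate the TWD with raw potato starch at 0, 2, 5, or 10% for 3 weeks, so every group, the 0% RPS controls included, had the TWD background. RNA from a short segment of PC just past the cecum was sequenced in 20 libraries, 5 per diet. The labels number each library but do not say that each number is a separate mouse, so p-values measure the spread between these libraries.

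Dietary fat is absorbed mainly in the small intestine. Fatty acids enter the enterocyte with the help of membrane proteins such as Cd36, are held in the cytosol by fatty acid-binding proteins (Fabp1 and Fabp2), and are rebuilt into triglyceride, the last step of which Dgat1 catalyses. The triglyceride is packed around Apob into chylomicrons with the help of Mttp, and Apoa1, the main protein of high-density lipoprotein, is secreted by the same cells and by the liver. The colon receives little dietary fat, and several of these genes also work in other cells of the gut wall, Cd36 in fat cells, endothelium, and macrophages among them.

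Of the 6 genes, Apoa1 was lower at 10% RPS than at 0% RPS, and none of the other 5 was called at any starch level. Apoa1 had a mean of 66.0 normalised counts at 0% RPS and 9.39 at 10% RPS, but its level rested on few reads and its call on few libraries. Fabp2 was abundant and Dgat1 the steadiest of the set. Cd36 followed genes of fat cells across the libraries. Among the other genes of fat handling, Mogat2, the acyltransferase that begins triglyceride re-synthesis from absorbed monoacylglycerol, was higher at 10% RPS.

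The 6 genes lie on 6 different chromosomes of GRCm39. Apoa1 is at chr9:46139878-46142212 on the plus strand, Apob at chr12:8027648-8066835 on the plus strand, and Fabp1 at chr6:71176809-71182016 on the plus strand. Fabp2 is at chr3:122688721-122693155 on the plus strand, Cd36 at chr5:17986432-18094067 on the minus strand, and Dgat1 at chr15:76385083-76396476 on the minus strand. No 50-base window of the Apoa1, Apob, or Fabp1 transcripts occurred in a transcript of another gene. For Dgat1, 33.2% of the windows lay on the opposite strand of Hsf1 transcripts, and for Fabp2, 12.8% lay opposite 4933405D12Rik. Whether counting used the strand of the reads is not stated, so reads of these overlapping pairs may not have been separated. For Cd36, 0.988% of the windows were shared with other genes.

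The 250 bases before the annotated start are shown for the 2 apolipoproteins, Apoa1, the gene that was lower at 10% RPS, and Apob, which was not called. They are read 5′ to 3′ on the plus strand of GRCm39, at chr9:46139628-46139877 for Apoa1 and chr12:8027398-8027647 for Apob, with a TATAAA match in capitals.
Apoa1: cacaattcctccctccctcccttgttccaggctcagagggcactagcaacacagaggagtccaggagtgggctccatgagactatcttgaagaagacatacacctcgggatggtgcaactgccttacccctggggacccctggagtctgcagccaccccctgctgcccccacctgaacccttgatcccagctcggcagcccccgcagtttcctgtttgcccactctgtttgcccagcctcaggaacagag
Apob: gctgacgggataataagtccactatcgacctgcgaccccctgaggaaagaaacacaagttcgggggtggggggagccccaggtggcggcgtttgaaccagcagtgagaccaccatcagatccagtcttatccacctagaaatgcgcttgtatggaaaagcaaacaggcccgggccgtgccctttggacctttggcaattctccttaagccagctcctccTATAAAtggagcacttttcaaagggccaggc

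Both strands of the window from 250 bases before to 50 bases after the annotated start were searched for 4 short motifs in all 6 genes. TATAAA, the core of a TATA box, was found in 2 of the 6 windows, at 31 bases before the start of Apob and 25 bases after that of Fabp1, and in 13.2% of 21757 mouse promoter windows of the same length. The letters CAAAGTCCA, a form of the site of the enterocyte and liver factor Hnf4a, occurred in 0 of the 6 and in 0.450% of all windows. The direct repeat of AGGTCA spaced by 1 base, the classical element of Hnf4a and of peroxisome proliferator-activated receptors, occurred in 0 of the 6 and in 0.046% of all windows. The shorter core CAAAG, which overlaps CAAAGTCCA, was in 4 of the 6 and in 54.3% of all windows. The Apoa1 window held none of the 4 as written. CAAAGTCCA and the repeat are so rare over all windows that their absence from these 6 says little. Sites that differ from these letters were not searched for.

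Library totals ranged from 20581013 to 35083751 counts, and 3 counts, taken as the detection floor, corresponded to 0.0855 to 0.146 CPM (counts scaled to the library total). Levels below are counts divided by DESeq2 size factors (normalised counts). All 10 colonocyte markers were measured, and Car1, a carbonic anhydrase of colonocytes, had at least 70115 normalised counts in every library. Library 0% RPS replicate 2 stood apart. It had the lowest summed small intestinal enterocyte markers (265 CPM) and the highest smooth muscle markers (12782 CPM) of the 20. Of 8 measured small intestinal markers, 5 were lowest in this library and 1, Anpep, was highest. Its summed macrophage (269 CPM) and endothelial markers (216 CPM) were the highest of the 20. So was the sum of its 2 measured pancreatic acinar markers (107 CPM). Its colonocyte markers were mixed: Car1 and Vil1 were the lowest of the 20 libraries and Slc26a3 and Aqp8 the highest, and their sum was the lowest with Car1 (14882 CPM) but the 6th lowest without it. Its Fabp6, the bile acid-binding protein of the ileum and proximal large bowel, was 44.8 normalised counts, against 549 to 8504 in the other 19. In whole tissue, fewer cells of a type and less RNA per cell cannot be told apart. The 3 starch diets were each compared with the same 0% RPS libraries, so those comparisons are not independent.

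Compared per kilobase of canonical transcript, the order of levels was Fabp2, Dgat1, Apob, Cd36, Fabp1, and Apoa1. Fabp2 averaged 16637 ± 3046 normalised counts per kilobase (SD, n = 20), at the 99.4th percentile of 12682 genes with an annotated length. Dgat1 followed at 779 ± 99.9 normalised counts per kilobase (80.9th percentile). Apob, the scaffold of chylomicrons, averaged 302 ± 80.7 and Cd36 averaged 280 ± 134 normalised counts per kilobase, at the 56.8th and 54.7th percentiles. Fabp1 averaged 63.3 ± 22.2 and Apoa1 22.4 ± 28.0 normalised counts per kilobase, at the 15th and 3.44th percentiles.

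The order of neighbouring genes per kilobase held in all 20 libraries for Fabp2 over Dgat1, Dgat1 over Apob, and Cd36 over Fabp1, and in 19 of 20 for Fabp1 over Apoa1, the exception being 0% RPS replicate 2. Apob was above Cd36 in 15 of 20 libraries, and a difference between these 2 was not tested. With the length of all annotated exons in place of the canonical transcript, Cd36 fell to 77.7 and Dgat1 to 323 normalised counts per kilobase, while Apob stayed at 302. The level per kilobase of Fabp2, the intestinal fatty acid-binding protein, was 263 times that of Fabp1, the liver-type protein, with a range over libraries of 148 to 466.

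The genes also differed in how far their libraries spread. The coefficient of variation of normalised counts over the 20 libraries was 12.8% for Dgat1, 18.3% for Fabp2, 26.7% for Apob, 35.0% for Fabp1, 47.9% for Cd36, and 125% for Apoa1. Between the lowest and the highest library, Dgat1 differed 1.56-fold and Apoa1 143-fold in normalised counts.

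**Figure D1:**
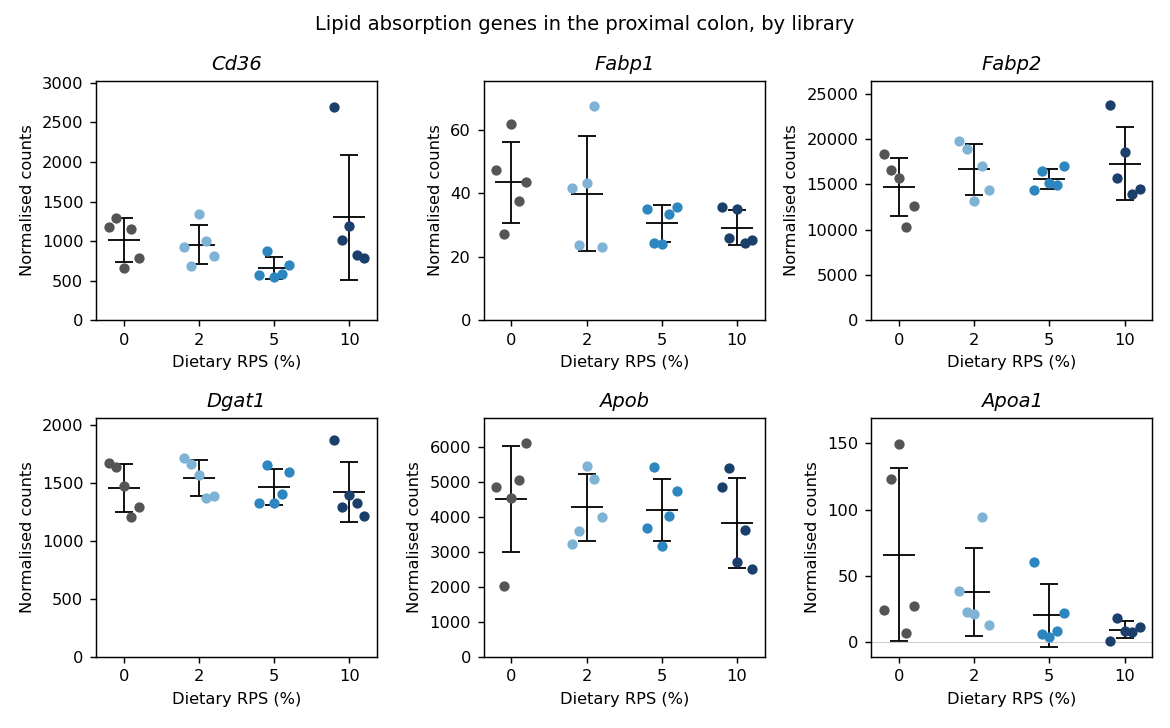
Normalised counts of each gene (y axis, separate scales) in the 20 libraries by dietary RPS (x axis, %), with points for libraries in replicate order and black bars for the mean and SD of 5. At 10% RPS the Apoa1 points lie between 1.04 and 18.4 while 2 of the 0% RPS points exceed 100, and 1 library at 10% RPS is the highest of all 20 for Cd36, Fabp2, and Dgat1.

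A gene was called where DESeq2 gave an adjusted p no higher than 0.05 together with a change of at least 1.5-fold. At 2% RPS, 0 of the 6 genes were called, where 0.0239% of all 12561 tested genes were called. The count was also 0 of 6 at an unadjusted p under 0.05 (background 8.7%) and by edgeR (background 0%). At 5% RPS, 0 of 6 were called by DESeq2 (background 0.438%) and by edgeR (background 0.0566%), and 2 of 6, Apoa1 and Cd36, had an unadjusted p under 0.05, where 16.6% of all genes did. At 10% RPS, 1 of 6, Apoa1, was called, in the lower direction, in which 0.381% of 12321 tested genes were called (0.917% in either direction). The median log2 fold change of the 6 genes was -0.08 at 2%, -0.31 at 5%, and -0.14 at 10% RPS, beside medians over all genes of -0.01, -0.01, and 0. At 10% RPS edgeR called 0 of 6, where it called 0.323% of all genes, and 2 of 6 had an edgeR unadjusted p under 0.05, where 18% of all genes did. The range at 10% RPS overlapped that at 0% RPS for each of the 6 genes, whereas 1.37% of 12348 genes lay wholly above and 1.19% wholly below.

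Between starch levels, 0 of the 6 genes were called in each of 3 comparisons by DESeq2 and by edgeR, where 0% of all genes were called for 5% against 2%, 0.0557% for 10% against 2%, and 0.00796% for 10% against 5% RPS. Unadjusted p-values under 0.05 numbered 0, 1, and 1 of 6 in these comparisons, Apoa1 for 10% against 2% and Cd36 for 10% against 5%, where 2.86%, 9%, and 4.11% of all genes had one. A linear trend on the percentage of RPS, tested with DESeq2 without a fold threshold, called 1 of the 6 genes, again Apoa1 and downward. In the trend, 1.89% of 12545 genes were called downward and 4.29% in either direction.

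**Figure D2:**
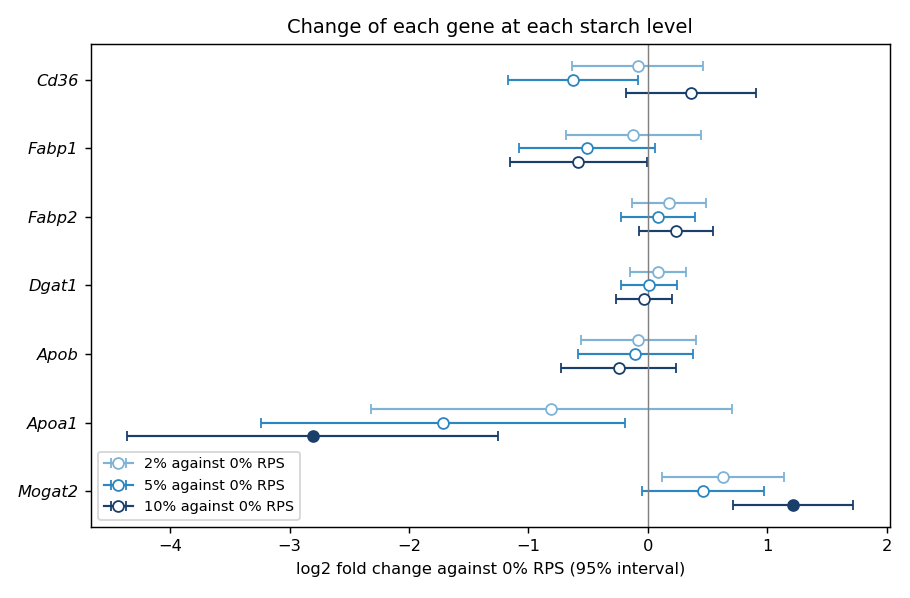
Log2 fold change against 0% RPS (x axis) with its 95% interval for the 6 genes and Mogat2 (rows) at 2, 5, and 10% RPS (shades of blue), filled where called. The filled points are Apoa1 at -2.81 and Mogat2 at 1.21, both at 10% RPS, and the intervals of Fabp2, Dgat1, and Apob include 0 at each level.

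For fatty acid uptake, Cd36 had 1172, 1291, 658, 1156, and 787 normalised counts in 0% RPS replicates 1 to 5. The 2% RPS libraries had 922, 687, 1343, 1005, and 814 normalised counts, and the 5% RPS libraries 571, 877, 542, 588, and 699. The 10% RPS libraries had 2691, 1012, 1185, 829, and 788 normalised counts of Cd36. All 5 libraries at 5% RPS lay below the 0% RPS mean, and a single library at 10% RPS, replicate 1, lay far above the other 19. Means were 1013 ± 274, 954 ± 248, 655 ± 138, and 1301 ± 793 normalised counts (SD, n = 5) at 0, 2, 5, and 10% RPS.

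Against 0% RPS, the Cd36 log2 fold change was -0.09 ± 0.279 (SE) at 2%, -0.63 ± 0.279 at 5%, and 0.36 ± 0.278 at 10% RPS, with DESeq2 adjusted p of 0.951, 0.226, and 0.485. The largest Cd36 difference was between 10% and 5% RPS, with a log2 fold change of 0.99 ± 0.279, a DESeq2 unadjusted p of 0.000383, and an adjusted p of 0.275. It fell to 0.54 without 10% RPS replicate 1 and rose to 1.31, with a DESeq2 adjusted p of 0.0373, without the 3 libraries with label numbers apart from the rest. These were 2% RPS replicate 5 and 10% RPS replicates 4 and 5. The latter had the lowest Cd36 at 10% RPS (829 and 788 normalised counts), and the fit kept replicate 1. Without 10% RPS replicate 1, Cd36 at 10% against 0% RPS turned to -0.09.

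Over the 20 libraries, the genes most like Cd36 in normalised counts were Adipoq, the fat cell hormone adiponectin, Fabp4, the fatty acid-binding protein of fat cells, and Car3, a carbonic anhydrase abundant in fat tissue, with Spearman rho of 0.968, 0.968, and 0.961 among 12347 genes. These points share library and depth, and the values are a description. Adipoq ranged from 9.95 normalised counts in 5% RPS replicate 3, which also had the lowest Cd36, to 2003 in 10% RPS replicate 1, which had the highest. Of 10 adipocyte markers, 9 were measured, and their summed level was 315 to 592 CPM at 0%, 339 to 652 at 2%, 254 to 354 at 5%, and 357 to 1249 CPM at 10% RPS, the last in replicate 1. The rho between Cd36 and this sum was 0.925. With a score of the adipocyte markers in the model, the Cd36 log2 fold change was -0.10 for 10% against 0% RPS. For 10% against 5% RPS it was 0.04. This alternative was chosen after seeing the data. The score includes Adipoq, which followed Cd36 closely, so the fit would shrink the Cd36 differences whatever their origin. That origin was not tested. The rho of Cd36 with summed endothelial markers was 0.266 and with summed macrophage markers 0.448.

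**Figure D3:**
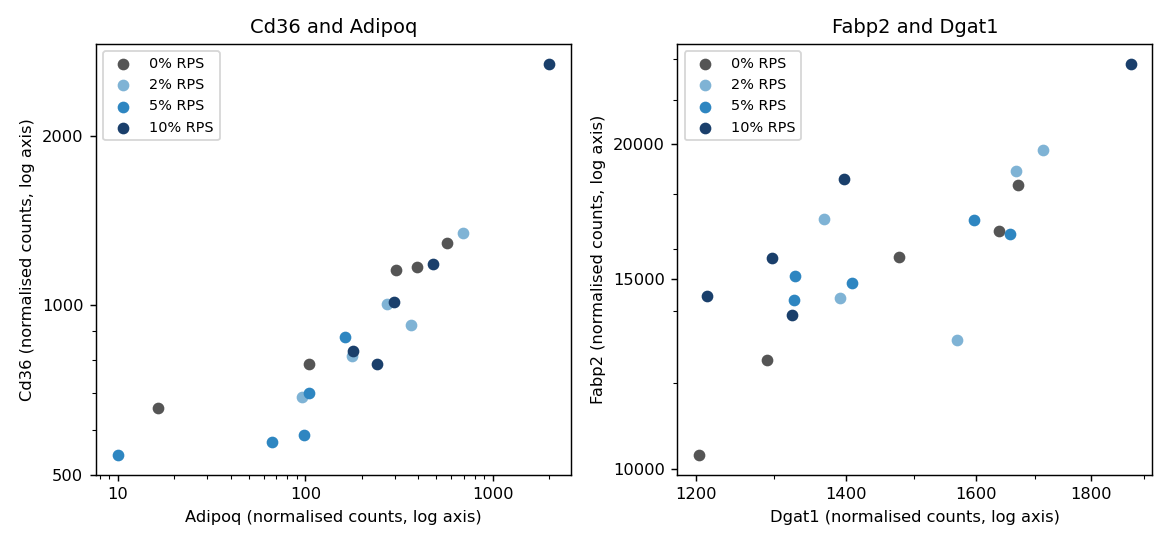
Normalised counts (log axes) of Cd36 against Adipoq (left) and of Fabp2 against Dgat1 (right), with each point a library and shades for the 4 diets. Cd36 rises with Adipoq across all diets, and 10% RPS replicate 1 is the farthest point at 2003 and 2691 normalised counts, while Fabp2 and Dgat1 rise together more loosely (rho 0.767).

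Fabp1, one of the cytosolic carriers of fatty acids, had 47.2, 27.1, 61.8, 37.4, and 43.5 normalised counts in the 0% RPS libraries. At 2% RPS the values were 41.6, 23.7, 43.2, 67.4, and 23.0. At 5% RPS Fabp1 had 35.1, 24.2, 23.9, 33.4, and 35.7 normalised counts, and at 10% RPS 35.5, 26.0, 34.9, 24.2, and 25.1. All 10 libraries of the 5% and 10% RPS diets lay below the 0% RPS mean of 43.4, yet within or just under the range of the 0% RPS libraries. The Fabp1 log2 fold change was -0.12 ± 0.288 at 2%, -0.51 ± 0.289 at 5%, and -0.58 ± 0.292 at 10% RPS, with DESeq2 adjusted p of 0.931, 0.362, and 0.251. At 10% RPS the unadjusted p was 0.0464 and the 95% interval -1.16 to -0.01, so a fall of Fabp1 was not established by the adjusted test. The Fabp1 trend was -0.06 per percent RPS on the log2 scale (DESeq2 adjusted p = 0.174, unadjusted p = 0.022).

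Fabp2, the other cytosolic carrier, stayed high in every diet. Its normalised counts ran from 10296 to 18322 at 0%, 13169 to 19778 at 2%, 14346 to 17021 at 5%, and 13887 to 23769 at 10% RPS. The means were 14711 ± 3225, 16656 ± 2833, 15569 ± 1141, and 17282 ± 4052 normalised counts (SD, n = 5), so the diets differed by less than the spread within most of them. The Fabp2 log2 fold change was 0.18, 0.08, and 0.23 at 2, 5, and 10% RPS, with DESeq2 adjusted p of 0.770, 0.829, and 0.419, and the 95% interval at 10% RPS was -0.08 to 0.54.

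Dgat1, which completes triglyceride synthesis, ranged from 1203 to 1670 normalised counts at 0%, 1368 to 1712 at 2%, 1327 to 1656 at 5%, and 1214 to 1875 at 10% RPS. The 4 diets had nearly the same mean, from 1422 at 10% to 1542 at 2% RPS. The Dgat1 log2 fold change was 0.08, 0.01, and -0.03 at 2, 5, and 10% RPS, with DESeq2 adjusted p of 0.875, 0.986, and 0.901. Its 95% interval at 10% RPS, -0.27 to 0.20, was the narrowest of the 6 genes. Across the 20 libraries Dgat1 and Fabp2 had a Spearman rho of 0.767, the highest of the 15 pairs among the 6 genes, and 0.791 after subtraction of diet means. Both were highest in 10% RPS replicate 1 and lowest in 0% RPS replicate 4, as a description of libraries that share depth and tissue make-up.

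Apob, the structural protein of chylomicrons, had 4866, 2029, 4535, 5061, and 6129 normalised counts at 0% RPS. Starch libraries ranged from 3229 to 5469 at 2%, 3160 to 5429 at 5%, and 2498 to 5404 normalised counts at 10% RPS. The lowest Apob of the 20 libraries was in 0% RPS replicate 2, and the highest was in 0% RPS replicate 5, so the control diet spanned the whole range. The Apob log2 fold change was -0.08, -0.11, and -0.24 at 2, 5, and 10% RPS, with DESeq2 adjusted p of 0.947, 0.864, and 0.614, and the 95% interval at 10% RPS was -0.73 to 0.24. Without 0% RPS replicate 2 the Apob values were -0.27, -0.29, and -0.43, with DESeq2 adjusted p of 0.686, 0.469, and 0.204.

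The genes most like Apob over the libraries were Cyp3a13, an intestinal cytochrome P450, Naaladl1, a brush border peptidase, and Mep1a, the brush border protease meprin alpha, with rho of 0.913, 0.877, and 0.875. In 0% RPS replicate 2, which had the lowest Apob, Naaladl1 was also lowest, at 1307 normalised counts, and so was Cyp3a13, at 3261, while Mep1a, at 13469, was the 3rd lowest of the 20. The genes most like the others were Ethe1, Guca2a, and Pdcl3 for Fabp2 (rho 0.830 to 0.795), Sgta, Tspo, and Map2k2 for Dgat1 (0.907 to 0.872), Agap3, Dennd6b, and Gm15635 for Fabp1 (0.794 to 0.771), and 1110006O24Rik, Klhl21, and Exoc3l2 for Apoa1 (0.726 to 0.681).

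Apoa1, the core protein of high-density lipoprotein, had 24.1, 123, 149, 7.17, and 27.0 normalised counts in 0% RPS replicates 1 to 5. The 2% RPS libraries had 38.3, 22.4, 21.0, 94.1, and 12.6, and the 5% RPS libraries 60.2, 5.82, 3.98, 8.15, and 22.04 normalised counts. The 10% RPS libraries had 1.04, 18.4, 8.14, 7.75, and 11.6 normalised counts of Apoa1. High values were scattered: 4 of the 20 libraries exceeded 60 normalised counts, 2 at 0%, 1 at 2%, and 1 at 5% RPS, and none at 10% RPS. All 5 libraries at 5% and all 5 at 10% RPS lay below the 0% RPS mean, but 4 of 5 at 10% RPS lay within the 0% RPS range.

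Means of Apoa1 were 66.0 ± 65.0, 37.7 ± 32.9, 20.04 ± 23.5, and 9.39 ± 6.34 normalised counts (SD, n = 5) at 0, 2, 5, and 10% RPS. The log2 fold change was -0.81 ± 0.772 at 2%, -1.71 ± 0.777 at 5%, and -2.81 ± 0.792 at 10% RPS, with DESeq2 adjusted p of 0.794, 0.239, and 0.0189. The 95% interval at 10% RPS was -4.36 to -1.25, and edgeR gave -2.76 with an adjusted p of 0.104. The trend was -0.28 ± 0.0723 per percent RPS on the log2 scale (DESeq2 adjusted p = 0.00966, edgeR adjusted p = 0.0699). Differences of Apoa1 between starch levels were -0.91, -1.997, and -1.09 for 5% against 2%, 10% against 2%, and 10% against 5% RPS, with DESeq2 adjusted p of 1, 0.379, and 1.

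Raw counts of Apoa1 ran from 1, in 10% RPS replicate 1, to 164, so counting error is large in the lowest libraries. The call at 10% RPS was lost without 0% RPS replicate 3 (log2 fold change -2.26, DESeq2 adjusted p = 0.0704) and without 10% RPS replicate 3 (-2.76, adjusted p = 0.0665), and it passed in the other 8 of the 10 fits that left out a library of these diets. Without both 0% RPS replicates above 100 normalised counts, an omission chosen after seeing the data, Apoa1 at 10% RPS was -1.03 with a DESeq2 adjusted p of 0.456.

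Apoa1 was compared with the liver marker Alb (albumin), since liver also makes Apoa1. Alb was 1085 normalised counts in 0% RPS replicate 2 and 392 in 5% RPS replicate 1, both with high Apoa1. Alb was 20.9 in 0% RPS replicate 3, the library with the most Apoa1, and 27.8 in 2% RPS replicate 4, also high in Apoa1. Of 10 hepatocyte markers, 3 were measured, and their summed level ranged from 46.5 to 91.1 CPM at 0%, 44.8 to 82.5 at 2%, 37.5 to 106 at 5%, and 49.9 to 99.9 CPM at 10% RPS. The 3 markers, Alb, Cyp2e1, and Tat, did not move together. In 0% RPS replicate 2 Alb was the highest of the 20 libraries and Tat the lowest, at 696 normalised counts. Cyp2e1 was highest in 10% RPS replicate 1, at 1602 normalised counts. Tat had the highest mean of the 3 in each diet and so weighed most in the summed level. Over the 20 libraries the rho of Apoa1 with this sum was -0.165 and with the sum of 8 measured small intestinal enterocyte markers -0.269. The part of liver in the Apoa1 values was not tested.

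**Figure D4:**
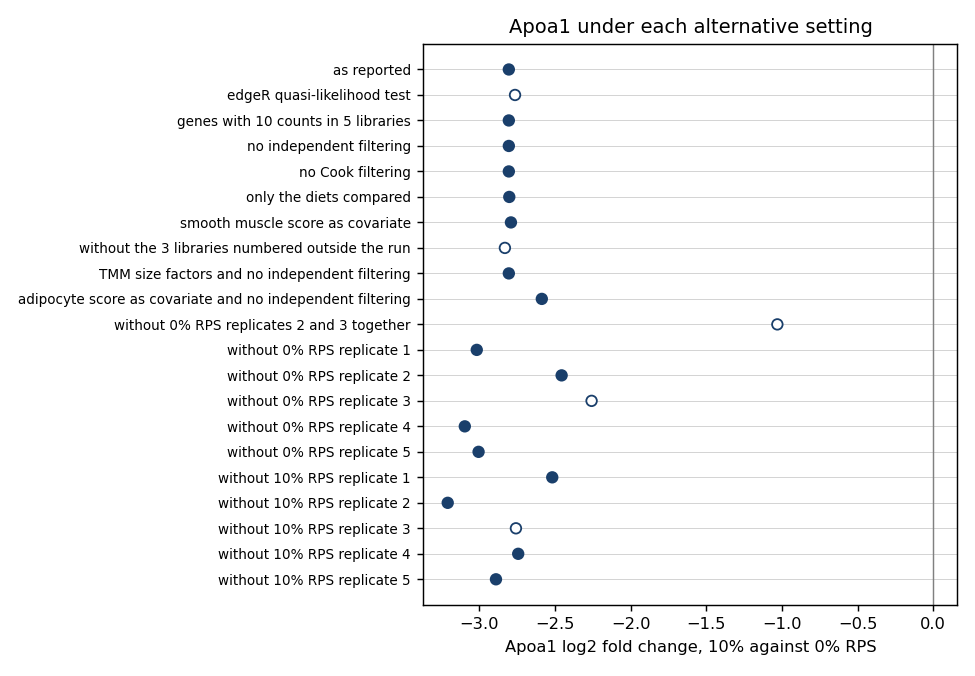
Apoa1 log2 fold change for 10% against 0% RPS (x axis) as reported and under each alternative that gave an adjusted p (rows), filled where the adjusted p was 0.05 or less. All points lie below 0, from -3.21 to -1.03, and the point nearest 0 is the fit without 0% RPS replicates 2 and 3.

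Around these 6 genes, 84 other genes of fat handling were listed by role, of which 71 were in the table. At 2% RPS 0 of the 71 were called, and 9 had an unadjusted p under 0.05, where 8.7% of all genes did. At 5% RPS 0 were called by DESeq2 and by edgeR, and 17 had an unadjusted p under 0.05, where 16.6% of all genes did. At 10% RPS 1 of 70 tested was called by DESeq2 in the higher direction, Mogat2, where 0.536% of all genes were called higher. edgeR called 2 at 10% RPS, Mogat2 and Abca1, where it called 0.323% of all genes. Without 0% RPS replicate 2 DESeq2 called 4, Mogat2 together with Abca1, Nr1h3, and Ppara. The share of all genes called in that fit is not given here. The median log2 fold change of the 71 was 0.02, -0.04, and 0.06 at 2, 5, and 10% RPS.

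Mogat2, at chr7:98868291-98887830 on the minus strand, had 208, 84.3, 207, 112, and 119 normalised counts at 0% RPS. It had 210, 236, 311, 218, and 157 at 2% RPS and 161, 200, 205, 210, and 231 normalised counts at 5% RPS. At 10% RPS Mogat2 had 450, 240, 444, 195, and 368 normalised counts. In all, 4 of the 5 libraries at 10% RPS were above every library at 0% RPS, and the remaining library was within their range. Its mean rose from 146 ± 57.7 to 339 ± 117 normalised counts, a log2 fold change of 1.21 ± 0.258 (DESeq2 adjusted p = 0.000742, edgeR adjusted p = 0.0314). The call passed in all 10 fits that left out a library of these diets, with values of 1.07 to 1.37. The Mogat2 trend was 0.10 per percent RPS on the log2 scale (DESeq2 adjusted p = 0.00497).

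By role at 10% RPS, 1 of 17 measured esterification genes was called. The counts were 0 of 5 for uptake, 0 of 6 for binding, and 0 of 4 for acyl-CoA synthetases. They were 0 of 6 for droplets and lipolysis, 0 of 16 for regulators, and 0 of 1 for sterol efflux. Assembly and secretion, the role of Apob and Apoa1, had 0 of 15 tested genes called. Over all genes 0.917% of 12321 were called in either direction. At that share lists this small would mostly hold 0, so the counts do not set the roles apart. Without the fold threshold 8 of the 70 passed, where 4.69% of all genes did, and they are named after their values were seen. The higher genes were Mogat2, Agpat4 (log2 fold change 0.46), a lysophosphatidic acid acyltransferase, Dbi (0.34), the acyl-CoA-binding protein, Apobec1 (0.51), the enzyme that edits Apob mRNA, and P4hb (0.25), the partner subunit of Mttp. Plpp3 (-0.31), a lipid phosphatase, Abca1 (-0.58), the cholesterol exporter that loads Apoa1, and Nr1h3 (-0.51), the oxysterol receptor that induces Abca1, were lower. The DESeq2 adjusted p of these 8 ran from 0.000742 for Mogat2 to 0.0476 for P4hb. By edgeR, Mogat2, Abca1, and Nr1h3 also had an adjusted p below the threshold (0.0314, 0.0416, and 0.0458). The edgeR share of all genes without a fold threshold is not given here. In the linear trend, 5 of the 71 passed, with Mogat2, Agpat4, and Apobec1 higher and Abca1 and Nr1h3 lower, where 4.29% of all genes passed. By edgeR 2 of the 70 it tested passed, Mogat2 and Nr1h3, where 1.33% of all genes did. Omission of single libraries moved this count between 2 (10% RPS replicate 3 or 5) and 9 (0% RPS replicate 2).

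**Figure D5:**
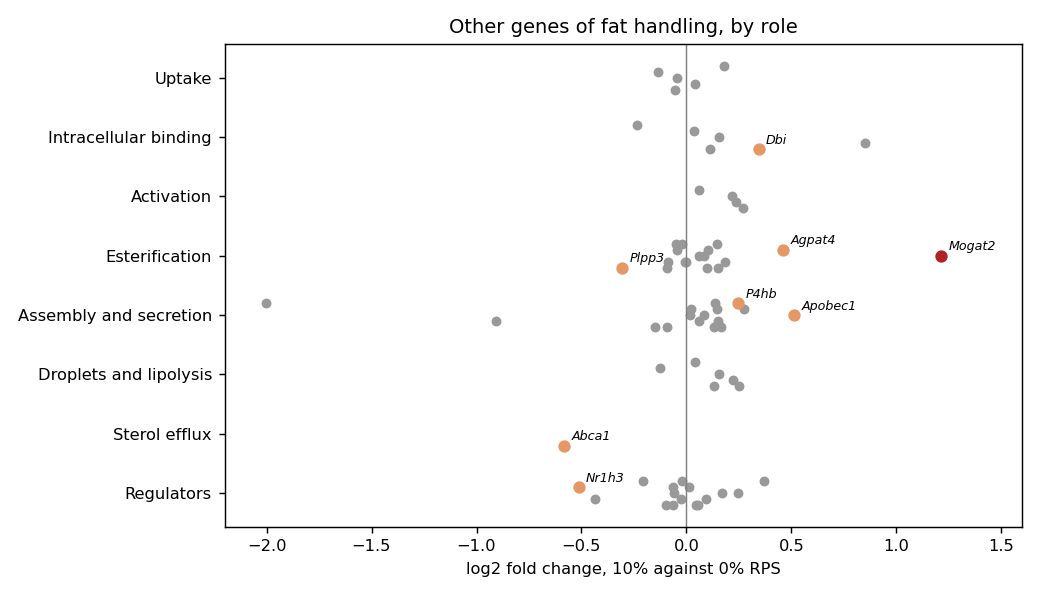
Log2 fold change for 10% against 0% RPS (x axis) of the other genes of fat handling, each a point in the row of its role. Red marks the called gene, Mogat2 at 1.21, orange marks 7 genes past the adjusted p without reaching 1.5-fold, from -0.58 (Abca1) to 0.51 (Apobec1), and grey marks the rest.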

How the data were processed

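RNA was sequenced as single-end 50-base reads from stranded mRNA libraries of 20 PC samples. The authors aligned reads to GRCm39 and deposited whole-number counts per Ensembl gene, neither normalised nor pooled. The gene annotation, use of strand, and treatment of reads matching several genes are not given in the sources used here. Groups were taken from the diet in the labels, and replicates were numbered within a diet only as names. Symbols and positions came from GENCODE M39, which held 12682 of the 12701 identifiers. Promoter windows were cut from GRCm39.

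All genes and libraries entered a single DESeq2 (version 1.42.0) fit in R (version 4.3.3) with diet as a factor, Wald tests, and default filtering. Adjusted p-values are Benjamini-Hochberg values over all tested genes. The quasi-likelihood test of edgeR (version 4.0.16) was the alternative test. Tested on data simulated for 10% against 0% RPS with 12701 genes, DESeq2 recovered 92% of 100 genes changed by 1 log2 unit and 99% of 100 changed by 2. It also called 5 unchanged genes. The changed genes were drawn at random from those averaging 10 or more normalised counts. Recovery at counts as low, or a spread as wide, as those of Apoa1 and Fabp1 was not measured separately.

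Genes named besides the 6 were those of the wider list that were called, and the 3 genes most like each member by Spearman correlation among genes averaging 10 or more normalised counts. Any gene named on other grounds was chosen after its values were seen. The genes, lists, and tests were chosen with earlier results of these data known. Figures were made with Python and matplotlib.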

Additional observations from a re-analysis of the deposited data

Results flagged for a closer look

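Normalised counts of the 6 genes and of Mogat2 were examined within each diet, 28 groups of 5 libraries, for a library separated from the others by more than 0.71 of the group's range. Chance would separate about 1 in 20 such groups, and 2 of 28 were found, both in 10% RPS replicate 1. Cd36 was 2691 normalised counts in that library, against 788 to 1185 in the other 4, a gap of 0.791 of the range. Dgat1 was 1875 normalised counts there, against 1214 to 1397 in the other 4, a gap of 0.723 of the range. The same library had the highest summed adipocyte markers of the 20, at 1249 CPM, and the lowest Apoa1, at 1 raw count. The rho with the summed adipocyte markers was 0.925 for Cd36 and 0.260 for Dgat1. The part of fat tissue in these values was not tested for either gene.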

How the results depend on the processing

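The alternatives were the edgeR test, TMM size factors, a minimum of 10 counts in 5 libraries, no independent or Cook filtering, other fold thresholds, only the diets compared, a smooth muscle score as covariate, omission of the 3 libraries with label numbers apart from the rest, and omission of each library. The 3 libraries were 2% RPS replicate 5 and 10% RPS replicates 4 and 5, so their omission mainly thinned the 10% RPS diet. An adipocyte score, omission of 0% RPS replicates 2 and 3 together, and TMM factors or the adipocyte score without independent filtering were added after seeing the data. The count of the 6 genes called at 10% RPS was 1 as reported and 0 with edgeR, without the 3 libraries, without 0% RPS replicates 2 and 3, with TMM factors, and with the adipocyte score. In the last 2 fits independent filtering left Apoa1 with no adjusted p, and without that filtering its log2 fold change was -2.81 (DESeq2 adjusted p = 0.0189) and -2.59 (adjusted p = 0.0333). Omission of each library gave 0 to 1. In the trend 0 of 6 passed with edgeR, with only the 2, 5, and 10% diets, and without 0% RPS replicates 2 and 3. Over all genes 165, 144, and 983 passed in those fits. Between starch levels 1 was called, Cd36 for 10% against 5% RPS, without the 3 libraries. In that fit 2 of all genes were called for 10% against 5% RPS.

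For the wider list, 1 gene was called at 2% RPS with the smooth muscle score (Apoc2, which had counts in 1 library of these diets) and 1 at 5% RPS without 0% RPS replicates 2 and 3 (Abca1) or without a fold threshold (Plpp3). At 10% RPS the count was 1 as reported, 2 with edgeR, with TMM factors with or without independent filtering, with the smooth muscle score, and without the 3 libraries, 5 without 0% RPS replicates 2 and 3, 8 without a fold threshold, and 1 to 4 on omission of each library. Its trend count was 5 as reported, 2 with edgeR, 0 with only the 2, 5, and 10% diets, 8 without 0% RPS replicates 2 and 3, and 2 (without 10% RPS replicate 3 or 5) to 9 (without 0% RPS replicate 2) on omission of each library. The cause of these differences was not tested. Calls over all genes also moved: without 0% RPS replicates 2 and 3 they were 129 at 5% RPS, 243 at 10% RPS, and 983 in the trend. As reported they were 55, 113, and 538. At 10% RPS they were 40 with edgeR, 110 with TMM factors, 128 with the smooth muscle score, and 67 without the 3 libraries. With the adipocyte score they were 146 at 10% RPS. In the trend they were 165 with edgeR and 144 with only the 2, 5, and 10% diets. At 2% RPS they were 3 as reported and 6 with the smooth muscle score. Totals over all genes for omission of each library are not given here.

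Log2 fold changes that turned sign were not called in either fit. Without 0% RPS replicates 2 and 3, Apoa1 was 0.97 at 2% RPS and 0.060 at 5% RPS, the latter with no adjusted p, and Dgat1 was 0.036 at 10% RPS. Without the 3 libraries, Fabp1 was 0.026 at 2% and Dgat1 0.065 at 10% RPS. With the smooth muscle score, Cd36 was 0.020 at 2% and Dgat1 0.011 at 10% RPS. With the adipocyte score, with or without independent filtering, Cd36 was -0.099 at 10% RPS. Omission of each library gave Apob -0.27 to 0.054 at 2% and -0.29 to 0.029 at 5%, Fabp1 -0.25 to 0.043 at 2%, Fabp2 -0.023 to 0.17 at 5%, Cd36 -0.24 to 0.018 at 2% and -0.087 to 0.50 at 10%, and Dgat1 -0.054 to 0.061 at 5% and -0.15 to 0.020 at 10% RPS. No paired analysis was possible because the labels give the diets no shared replicate numbers. Depth limits Apoa1 and Fabp1, whose lowest libraries held 1 and 18 counts.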
